A study of Mus musculus with 9 samples.

Results

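The Ly6 genes code for small cysteine-rich proteins that mostly sit on the outer face of the cell membrane, held there by a lipid (GPI) anchor. Immunologists know them as lymphocyte and monocyte surface antigens, and several of them are induced by interferons. In liver, blood vessels and resident or passing blood cells are among their known carriers. The 7 genes described here, Ly6d, Ly6a, Ly6c1, Ly6c2, Ly6e, Ly6i and Ly6h, were selected by name from the 20972 gene symbols that could be given to probes of a mouse expression array. The family was chosen because Ly6d was among the largest rises in untreated STAM liver against normal liver, so the values of that comparison are a description and carry no test. Of the 7 genes, 6 had at least 1 probe, and Ly6c2 was matched by none. There were 8 member probes, of which 5 probes of 4 genes passed the filter on dim signals, and both the Ly6i probe and the 2 Ly6h probes did not.

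Liver RNA of 9 male C57B/6 J mice was hybridised to 1-colour Agilent arrays, with 1 array per mouse, 3 mice per group and all mice at 20 weeks of age. STAM mice received a low dose of streptozotocin, a toxin of insulin-producing cells, soon after birth and were then fed a high-fat diet from weaning. STAM-NON mice were given no insulin, STAM-INS mice were given an insulin analogue under the skin, and both groups carried the streptozotocin and the high-fat diet. The study used glargine and degludec at this age, and which of them the array mice had is not stated. Normal mice had neither and ate standard chow, so the toxin, the diet and the disease they bring cannot be told apart in a comparison of STAM with Normal. The age is that at which liver tumours are present in this model, and whether the pieces of liver held tumour is not given in the sources used here. In whole liver, a change in the number of cells of a type and a change in RNA per cell cannot be told apart.

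Values are the log2 signal of a probe minus the 75th percentile of its array, called the centred log2 signal, so that 0 is the brightness of the 75th percentile spot. Levels are compared between arrays for 1 probe and not between probes. All Normal arrays lay on a slide of their own, and the slide and the Normal group cannot be told apart. Arrays STAM-NON 1, STAM-NON 3 and STAM-INS 1 had 59.3%, 63.1% and 65.0% of spots well above background, against 46.2% to 51.1% on the other 6 arrays, and results are therefore also given without those 3. All 12 genes of a hepatocyte list, albumin and transthyretin among them, were well above background on all 9 arrays, which fits the label of liver.

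Ly6d, which marks early lymphoid progenitors of the B lineage and the keratinocytes of stratified epithelia, showed the widest separation of the family. Its centred log2 signal was 5.72, 5.06 and 4.09 in STAM-NON 1, 2 and 3, it was 4.95, 6.61 and 4.56 in STAM-INS 1, 2 and 3, and it was -1.74, -0.98 and -0.92 in Normal 1, 2 and 3. Every STAM array lay above every Normal array, while the 2 STAM groups overlapped. The highest single value belonged to STAM-INS 2 and the lowest STAM value to STAM-NON 3. The probe was well above background in Normal liver too, so the gene was measured on both sides. The mean was 4.95 ± 0.82 for STAM-NON, 5.38 ± 1.09 for STAM-INS and -1.21 ± 0.46 for Normal (SD, n = 3).

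Ly6e is widely expressed and inducible by interferon, and its product limits the entry of some viruses. It was at 5.72, 5.47 and 6.72 in the STAM-NON arrays 1 to 3, at 6.45, 7.29 and 6.30 in the STAM-INS arrays and at 4.79, 5.23 and 4.84 in the Normal arrays. Again no Normal array reached a STAM array. Here STAM-INS was the higher of the STAM groups, with a mean of 6.68 ± 0.53 against 5.97 ± 0.66 for STAM-NON and 4.95 ± 0.24 for Normal (SD, n = 3), but STAM-NON 3 lay inside the STAM-INS range.

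Ly6a codes for the stem cell antigen that also marks endothelium and activated lymphocytes. Its centred log2 signal was 2.79, 1.83 and 1.52 in STAM-NON, 1.74, 1.92 and 1.43 in STAM-INS and 0.47, 1.07 and 1.13 in Normal, in order of array number. The lowest STAM value, that of STAM-INS 3, was still above the highest Normal value, and STAM-NON 1 stood above all other arrays.

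**Figure D1:**
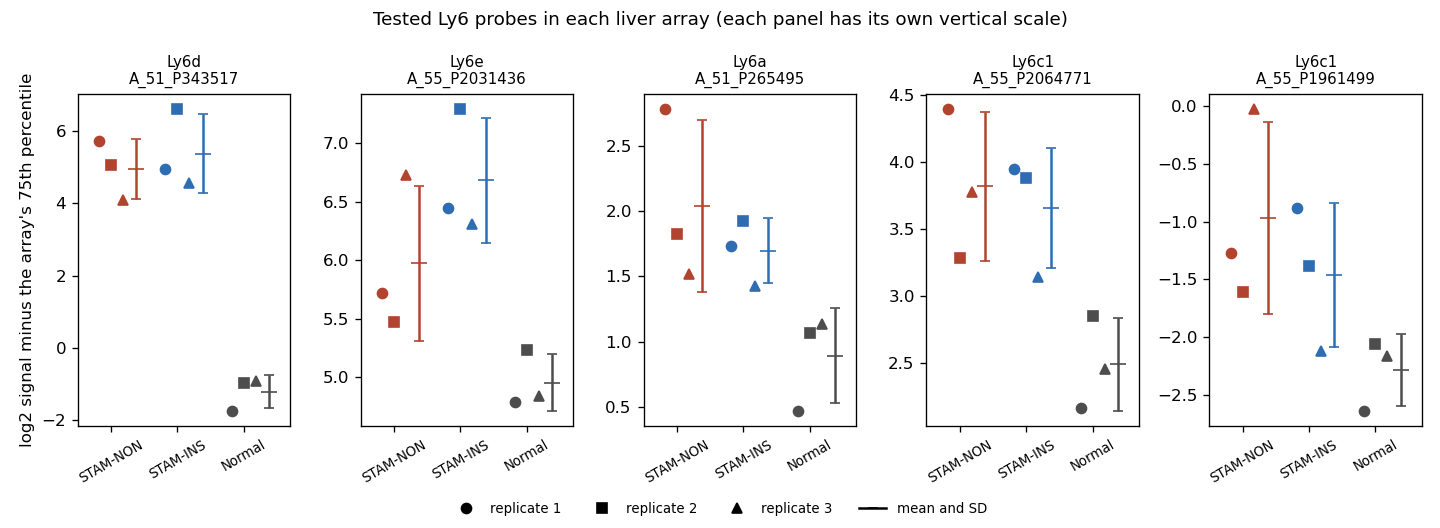
Centred log2 signal of the 5 tested Ly6 probes (vertical axes in log2 units, 1 panel per probe with its own scale) in each of 9 liver arrays, with the mean and SD of each group beside the points (n = 3). STAM-NON and STAM-INS points overlap in every panel, and the Ly6d panel has the widest gap between STAM and Normal, from 4.09 down to -0.92.

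Ly6c1 and Ly6c2 are neighbouring, nearly identical genes whose products together make the Ly6C antigen of monocytes, and Ly6c1 is also found on endothelium. The array held 2 Ly6c1 probes, of different Ly6c1 transcripts, and their sequences were not used here. A probe for either gene may also bind transcripts of its neighbours, Ly6a and Ly6i included, so the Ly6c1, Ly6a and Ly6i values are uncertain as to the exact gene. The promoters of the Ly6c1 and Ly6c2 genes show how alike these neighbours are. They are shown because Ly6 genes are known interferon targets and because Ly6c2 had no probe. They come from RefSeq on GRCm38.p6, were found for 2 of the 7 members with 2 start sites each, and the first start site of each is given, 5′ to 3′ on the minus strand, with capitals for a TATAAA match.
Ly6c1, chr15:75048788-75049087: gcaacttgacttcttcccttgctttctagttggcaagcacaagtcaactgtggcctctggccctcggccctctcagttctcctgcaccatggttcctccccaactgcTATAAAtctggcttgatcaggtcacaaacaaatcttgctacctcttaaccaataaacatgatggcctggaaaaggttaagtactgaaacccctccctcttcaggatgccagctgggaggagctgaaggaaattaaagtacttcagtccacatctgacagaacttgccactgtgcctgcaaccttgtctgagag
Ly6c2, chr15:75111922-75112221: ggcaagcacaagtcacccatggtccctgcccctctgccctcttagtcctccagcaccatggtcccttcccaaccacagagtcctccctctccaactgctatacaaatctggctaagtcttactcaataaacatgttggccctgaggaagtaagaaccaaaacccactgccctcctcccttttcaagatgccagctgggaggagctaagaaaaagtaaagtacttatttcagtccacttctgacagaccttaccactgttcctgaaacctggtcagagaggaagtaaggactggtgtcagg

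In a global alignment with free end gaps these 2 promoters were identical at 211 of 265 aligned bases, or 79.6%, with bases opposite gaps not counted. Over all pairs of a Ly6c1 with a Ly6c2 entry, identity ran from 79.2% to 91.5% of aligned bases, the highest over 176 aligned bases. Likeness of promoters says nothing of which transcripts a probe binds. Letters of motifs that interferon signalling uses were searched on both strands of all 4 promoter entries of the 2 genes. The core of the interferon-stimulated response element, GAAANNGAA, and the gamma-activated sequence, TTCNNNGAA, matched none of them, and each was held by 8.56% and 8.30% of the 32851 promoters in the same table. The letters TATAAA matched once, in the first Ly6c1 promoter, 143 bases before the start site, and were held by 13.6% of all promoters. The absence of letters in these windows says nothing of the factors themselves.

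The brighter Ly6c1 probe, A_55_P2064771, was at 4.39, 3.28 and 3.78 in STAM-NON, at 3.95, 3.88 and 3.14 in STAM-INS and at 2.17, 2.85 and 2.46 in Normal. No STAM array fell into the Normal range. The dimmer probe, A_55_P1961499, was at -1.27, -1.61 and -0.03 in STAM-NON, at -0.88, -1.38 and -2.12 in STAM-INS and at -2.63, -2.06 and -2.16 in Normal. On this probe STAM-INS 3 lay among the Normal arrays, so the 2 probes differed in whether STAM-INS overlapped Normal.

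Ly6i, a close relative of Ly6c1, and Ly6h, a gene of the brain that modulates acetylcholine receptors, were dim. The Ly6i probe was well above background on 4 of the 9 arrays, STAM-NON 1, STAM-NON 3, STAM-INS 1 and Normal 3, and its values ran from -4.55 to -3.26 with the 3 groups overlapping. One Ly6h probe was well above background on the 3 arrays with the most detected spots alone, and its values ran from -4.94 to -3.64. The other Ly6h probe was not well above background on any array. No bound on a change of Ly6i or Ly6h could be given, since no bright group stood over a dim one.

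STAM-NON and Normal were compared to see what the untreated model changes. The mean Ly6d signal was 6.17 higher on the log2 scale in STAM-NON, or 71.9-fold, which placed it at rank 4 among the 26277 tested probes by size of the rise. The other members differed far less. The difference was 1.33 (2.51-fold) and 1.31 (2.49-fold) for the 2 Ly6c1 probes, 1.16 (2.23-fold) for Ly6a and 1.02 (2.02-fold) for Ly6e. All 5 member probes had groups that did not overlap, as had 13.2% of all tested probes in the same direction. In limma 3 of the 5, of Ly6d, Ly6a and Ly6c1, passed an adjusted p of 0.05, beside 6.30% of all tested probes that passed as higher and 9.76% as lower, and nothing is read from this count since the comparison chose the family. With STAM-NON 2 as the only STAM-NON array and STAM-INS 1 also left out, the differences were 6.27 for Ly6d, 0.94 for Ly6a, 0.79 and 0.67 for the brighter and the dimmer Ly6c1 probe and 0.51 for Ly6e, each still above Normal. A lone array is assumed there to vary like those of the other groups, so no call is read from it. All STAM-NON arrays lay in row 1 of their slide and the Normal arrays in row 2. With the row as a block 0 of the 5 passed, with Ly6d at 6.80. In that fit 9 of all 26277 tested probes passed as higher and 6 as lower, so nothing is read from the 0.

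STAM-INS and STAM-NON were compared to see what insulin changed, and the STAM-NON arrays are shared with the comparison that chose the family. No member probe passed the threshold in this comparison, by limma or by the unpaired test of the study's general methods, and none had an unadjusted limma p under 0.05, where 2308 of 26277 probes did. In all, 0.0913% of tested probes passed. Ly6e was 0.71 higher in STAM-INS, with a 95% confidence interval of -0.12 to 1.54 and a limma adjusted p of 0.619. Ly6d was 0.42 higher with an interval of -0.90 to 1.75 (limma adjusted p of 0.873). Ly6a fell on the other side, at -0.35 with an interval of -1.1 to 0.40 (limma adjusted p of 0.805). The Ly6c1 probes were at -0.16 (-0.91 to 0.59) and -0.49 (-1.5 to 0.52), with limma adjusted p-values of 0.917 and 0.793. The intervals span 0 and, for Ly6d, Ly6e, Ly6a and the dimmer Ly6c1 probe, still hold a change of 1 log2 unit in 1 direction. The signs of Ly6d, Ly6a and the brighter Ly6c1 probe turned when single arrays were left out, while Ly6e was higher in STAM-INS under all 22 other settings tried, by 0.40 to 1.33. With the slide row as a block, which sets STAM-INS 1 against the STAM-NON arrays, Ly6e was 0.47 higher and Ly6d stood at -0.00.

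STAM-INS and Normal were compared to see what differed from normal liver with insulin given, and the Normal arrays are shared with the comparison that chose the family. Ly6d, for which the family was chosen on the same Normal arrays, is again given as a description, with no test: it was 6.59 higher on the log2 scale, or 96.3-fold. Ly6e was 1.73 ± 0.36 higher (SE), or 3.31-fold, with an interval of 0.90 to 2.56 and a limma adjusted p of 0.0211. The brighter Ly6c1 probe was 1.17 ± 0.33 higher (SE), or 2.24-fold, with a limma adjusted p of 0.0495 that stayed under the threshold in 8 of 22 other settings, and the dimmer probe was 0.82 ± 0.44 higher, with an interval of -0.19 to 1.83 and an adjusted p of 0.231. Ly6a was 0.81 ± 0.33 higher (SE), or 1.75-fold, at a limma adjusted p of 0.130. With Ly6d not counted, the Ly6e probe and the brighter Ly6c1 probe passed as higher and no member probe as lower. Of all tested probes 5.16% passed as higher and 8.73% as lower. STAM-INS lay above Normal without overlap for each tested member probe but the dimmer Ly6c1 probe, as it did for 15.1% of all tested probes. Without the 3 arrays of most detected spots, Ly6d was 6.80 higher, and Ly6e was 1.84 higher and passed (limma adjusted p of 0.0293), while the brighter Ly6c1 probe, at 1.02, did not (limma adjusted p of 0.0815). Within slide row 2, which holds STAM-INS 2 and 3 and the Normal arrays, the differences were the same 6.80, 1.84 and 1.02, with limma adjusted p-values of 0.0423 for Ly6e and 0.126 for Ly6c1 in the fit with the row as a block. Ly6e also fell short of the threshold without STAM-INS 2, Normal 1 or Normal 3, each taken singly, with limma adjusted p-values of 0.0665, 0.0679 and 0.0717.

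**Figure D2:**
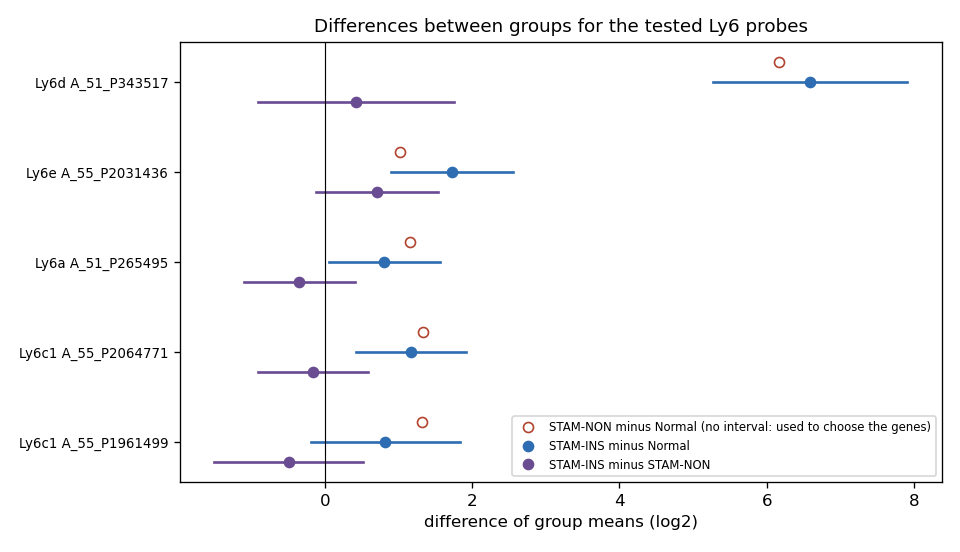
Differences between group means on the log2 scale (horizontal axis) for the 5 tested Ly6 probes, with 95% confidence intervals from limma for the 2 comparisons that did not choose the family. The intervals of STAM-INS minus STAM-NON all cross 0. That of Ly6d for STAM-INS minus Normal is no test, since the family was chosen for Ly6d on the same Normal arrays.

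The order of group means was STAM-INS, STAM-NON and Normal for Ly6d and Ly6e, and STAM-NON, STAM-INS and Normal for Ly6a and both Ly6c1 probes. The first and second places in these orders do not differ beyond the spread of the arrays. Over the 4 tested genes, with 1 probe per gene, the median difference was 1.25 for STAM-NON against Normal, 0.13 for STAM-INS against STAM-NON and 1.45 for STAM-INS against Normal. The medians over all tested probes were -0.14, 0.03 and -0.09. The summed signal of the 6 genes with a probe, in units of the 75th percentile spot, ranged from 91.0 to 139 in STAM-NON, 114 to 273 in STAM-INS and 33.9 to 47.4 in Normal.

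The genes whose profile over the 9 arrays came closest to that of Ly6d were found by the root mean square difference between profiles, each taken minus its own mean, among 13381 genes. They were Cdkn1a at 0.94, Lcn2 at 1.1, Bmp8b at 1.1, Gipc2 at 1.17 and Sybu at 1.19 log2 units. Cdkn1a codes for the cell cycle inhibitor p21, Lcn2 for lipocalin, a secreted protein of inflammation that binds bacterial iron carriers, and Bmp8b for a secreted growth factor of the BMP family. Their mean differences between STAM-NON and Normal were 4.99, 4.85 and 5.45 on the log2 scale. Cdkn1a was at 1.24, 1.55 and 1.99 in STAM-NON, 1.07, 2.57 and 2.09 in STAM-INS and -3.33, -3.33 and -3.54 in Normal. STAM-INS 2 held the highest value of Ly6d, Cdkn1a and Lcn2 alike.

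**Figure D3:**
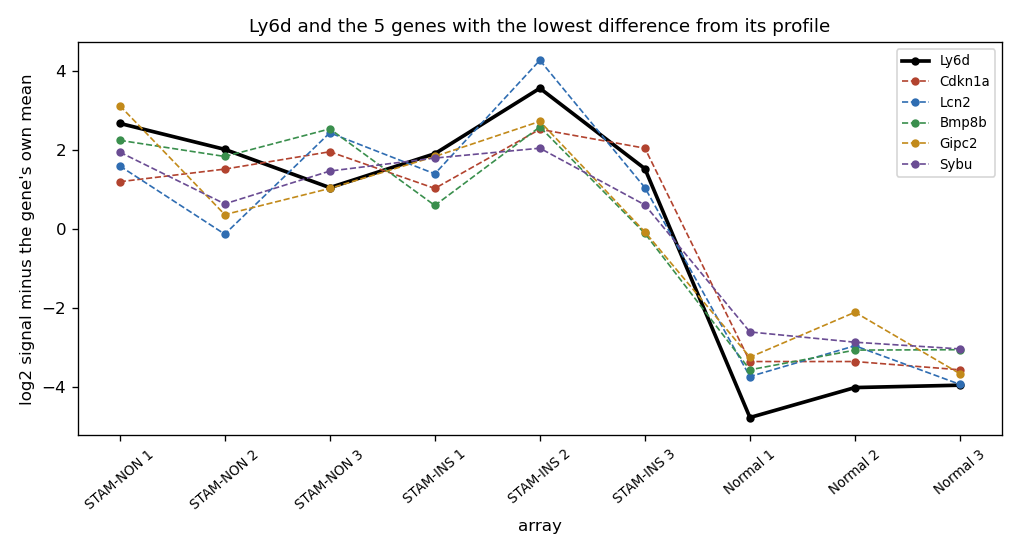
Log2 signal minus the gene's own mean (vertical axis) in each of the 9 arrays for Ly6d and the 5 genes with the lowest root mean square difference from it. All 6 genes are lower in the 3 Normal arrays, and Ly6d is highest in STAM-INS 2 at 3.57 above its mean.

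For the other members the closest profiles were nearer. Ly6e was closest to Dhcr7 at 0.17, Nsdhl at 0.19 and Fam187b at 0.24, of which Dhcr7 and Nsdhl are enzymes of sterol synthesis. Their mean differences for STAM-INS against STAM-NON were 0.54, 0.66 and 0.40 on the log2 scale, beside 0.71 for Ly6e. Ly6a was closest to Maged2 at 0.18, to the lymphocyte kinase gene Stk10 at 0.19 and to Lgals3bp, which codes for a secreted galectin-binding protein, at 0.21. The brighter Ly6c1 probe was closest to Ctps2, an enzyme of CTP synthesis, at 0.13, to Crip1 at 0.18 and to Spp1, the osteopontin gene, at 0.20. These values order genes by likeness over 9 arrays that share 3 groups, and a gene that only separates STAM from Normal by a like amount scores well.

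All 7 members lie on chromosome 15, and their surroundings were examined by gene order alone. In the stretch of 40 genes around them, 23 genes that are no members had a probe and 10 were tested. Lynx1, whose product modulates acetylcholine receptors and whose gene is next to Ly6d, was higher in STAM-NON by 1.19 ± 0.28 (SE; limma adjusted p of 0.0301). The next gene beyond Lynx1, Slurp2, which codes for a secreted relative, fell by 0.64 (limma adjusted p of 0.0183). Gml2, in the interval between Ly6d and Ly6e, fell by 0.53 (limma adjusted p of 0.0487). None of the other 7 tested neighbours passed, and the median over the 10 was 0.02. The count of 1 higher and 2 lower of 10 stands beside 6.30% and 9.76% of all tested probes, and nothing particular to the stretch is read from it. The same 3 neighbours passed in STAM-INS against Normal, Lynx1 at 1.20, Slurp2 at -0.52 and Gml2 at -0.63, and 0 of 10 passed in STAM-INS against STAM-NON. With arrays centred on spike-in spots the falls of Slurp2 and Gml2 did not pass.

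**Figure D4:**
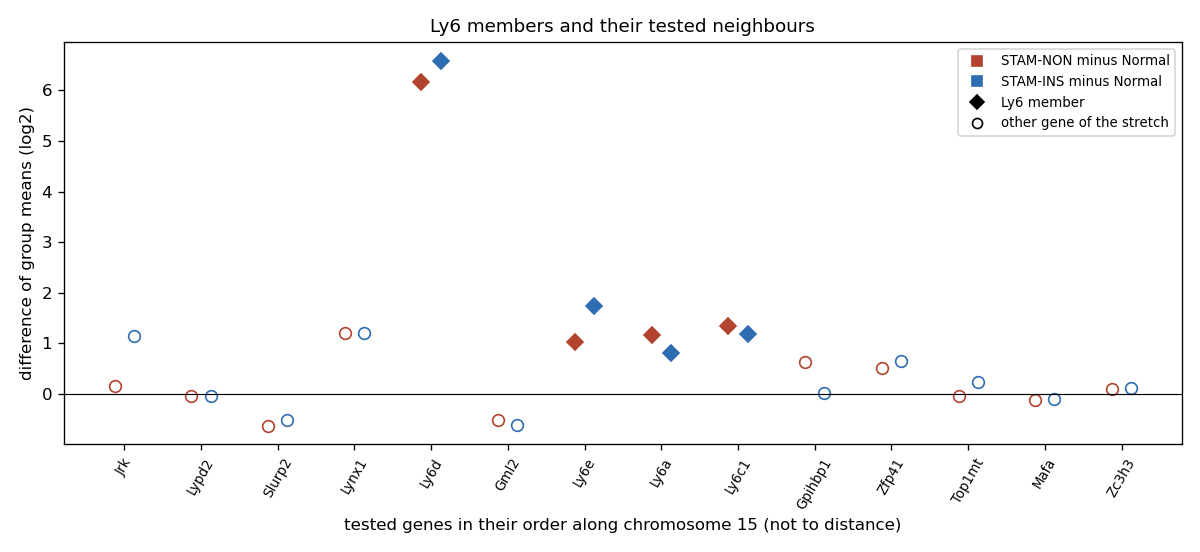
Difference of group means on the log2 scale (vertical axis) for the tested genes around the Ly6 members, in their order along chromosome 15 and not to distance. Ly6 members (diamonds) lie at 0.81 or above for both comparisons with Normal, while Slurp2 and Gml2 lie below 0.

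Other proteins with the same Ly6/uPAR fold were taken as a list of 38 genes, of which 35 had a probe, 15 were tested and 11 were not well above background on any array. In STAM-NON against Normal 2 were higher and 3 lower past the threshold, with a median of -0.08. Over all tested probes 6.3% passed as higher and 9.76% as lower there, and 5.16% and 8.73% in STAM-INS against Normal. Plaur, the receptor of urokinase, was 2.01 ± 0.56 (SE) higher (limma adjusted p of 0.0454) and Lynx1 was the other rise. Spaca4, a sperm membrane gene, fell by 0.76 (limma adjusted p of 0.0130), and Slurp2 and Gml2 are given above. In STAM-INS against Normal 1 was higher (Lynx1) and 3 were lower (Spaca4 at -0.71, Gml2 and Slurp2), with a median of -0.06, and none passed in STAM-INS against STAM-NON. Without the 3 arrays of most detected spots, which leaves STAM-NON 2 as the only STAM-NON array, the median was 0.02 in STAM-NON against Normal. It was -0.12 in STAM-INS against Normal. The calls depended on the scaling, and with arrays centred on spike-in spots 3 genes of the list passed as higher and 0 as lower in STAM-NON against Normal. They also depended on single arrays, and without Normal 3 the list had 0 genes past the threshold in either comparison with Normal.

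Ly6 proteins need the enzymes that build the GPI anchor and attach it. Of 28 such genes 26 were tested, and 1 was higher and 1 lower in STAM-NON than in Normal, with a median of -0.01. Over all tested probes 6.3% passed as higher and 9.76% as lower there, and 5.16% and 8.73% in STAM-INS against Normal. The rise was Pigz, by 0.94 (limma adjusted p of 0.0436), which adds a mannose to the anchor, and the fall was Dpm1, by 0.87 (limma adjusted p of 0.0146), a subunit of the enzyme that supplies the mannose. In STAM-INS against Normal Pign was higher by 0.82, while Dpm1 fell by 0.60 and the transamidase subunit Pigt fell by 0.46. No gene of the list passed between the STAM groups. Without the 3 arrays of most detected spots none passed in STAM-NON against Normal, and 0 were higher and 1 lower in STAM-INS against Normal.

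Interferon-stimulated genes were examined because Ly6a, Ly6c1 and Ly6e are known to respond to interferons. Of 24 listed genes 22 were tested, all of them well above background on all 9 arrays. In STAM-NON against Normal 14 were higher and 1 was lower past the threshold, with a median of 1.02. Over all tested probes 6.3% passed as higher and 9.76% as lower there, and 5.16% and 8.73% in STAM-INS against Normal. Oas1a, which senses viral RNA, was 2.19 ± 0.23 higher (limma adjusted p of 0.00402), Ifi44 2.14 ± 0.32 (limma adjusted p of 0.0100), Usp18, a brake on interferon signalling, 1.71 ± 0.37 (limma adjusted p of 0.0238) and Rsad2, the antiviral viperin, 1.51 ± 0.34 (limma adjusted p of 0.0261). The gene that fell was Iigp1, by 0.79, an interferon-inducible GTPase. In STAM-INS against Normal 15 were higher and 0 lower, with a median of 1.27, and Oas1a reached 2.82 ± 0.23 and Ifi44 2.72 ± 0.32. Between the STAM groups 0 of 22 passed and the median was 0.15. Under the 4 other scalings of the arrays 10 to 16 genes of the list passed as higher in STAM-NON and 11 to 16 in STAM-INS against Normal. Without the 3 arrays of most detected spots the median was 0.99 in STAM-NON, then STAM-NON 2 alone, against Normal. It was 1.13 in STAM-INS against Normal.

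**Figure D5:**
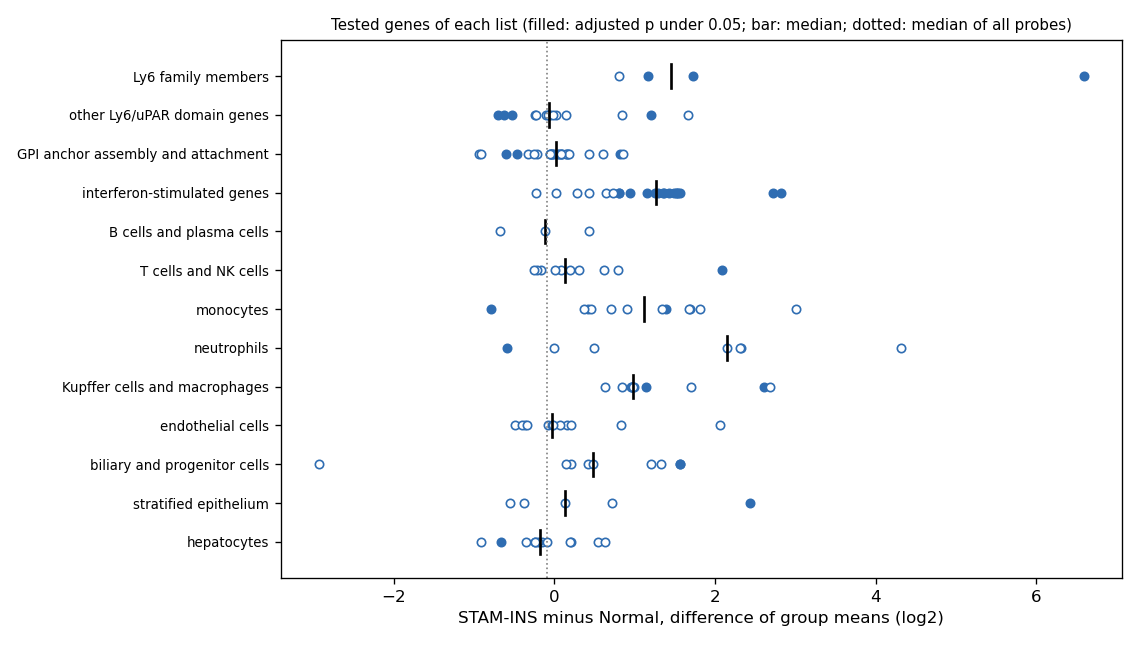
Difference between STAM-INS and Normal means on the log2 scale (horizontal axis) for every tested gene of each list, filled where the limma adjusted p was under 0.05, with the list median as a bar and the median of all tested probes as a dotted line. The Ly6 and interferon lists have medians of 1.45 and 1.27, beside 2.15 for neutrophil, 1.12 for monocyte and 0.98 for macrophage markers. Biliary markers have a median of 0.48. The other lists have medians from -0.18 to 0.14, with B cell markers at -0.12 and stratified epithelium markers at 0.14.

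Markers of the cells that carry Ly6 antigens were read beside the members. For Ly6d these are B lineage cells and stratified epithelium. Counts of markers past the threshold, here and for the cell types below, stand beside shares of all tested probes. These shares were 6.3% higher and 9.76% lower in STAM-NON against Normal, and 5.16% and 8.73% in STAM-INS against Normal. Of 12 B cell and plasma cell markers 3 were tested and 0 passed in any comparison. Tnfrsf17 was not well above background on any array, while Ms4a1, Cd79a and Pax5 were detected on 1 to 4 of the 9 arrays. The summed signal of the B cell list was 1.62 to 4.49 for STAM-NON, 2.12 to 2.15 for STAM-INS and 2.04 to 2.62 for Normal, with overlap of STAM and Normal. That sum by construction follows its brightest probes. Of 12 stratified epithelium markers 5 were tested, and Krt6a, Dsc3 and Sprr1b were not well above background on any array. One of them passed, Sprr1a, a cornified envelope gene that is also induced by injury, at 2.88 ± 0.33 for STAM-NON and 2.43 ± 0.33 for STAM-INS against Normal (limma adjusted p of 0.00474 and 0.00468). The summed signal of the list was 49.0 to 54.9 for STAM-NON, 38.8 to 61.3 for STAM-INS and 53.0 to 60.5 for Normal. That sum also overlapped, and by construction it follows its brightest probe, that of Perp. The mean centred log2 signal of the 12 genes, undetected ones included, was -2.80 to -2.45 over the STAM arrays. It was -2.99 to -2.81 over the Normal arrays. The part of these cells in the Ly6d values was not tested.

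For Ly6c1 and Ly6a the carriers are monocytes, endothelium and T cells. Of 12 monocyte markers, all tested, 3 were higher and 1 lower in STAM-NON than in Normal, with a median of 1.25. They were the chemokine receptor Cx3cr1 at 2.72, the endotoxin co-receptor Cd14 at 1.51 and Plac8 at 1.38, against Ms4a4c at -0.55. Their summed signal was 656 to 886 for STAM-NON, 729 to 903 for STAM-INS and 893 to 941 for Normal, a sum that by construction follows its brightest probes. The mean centred log2 signal of the monocyte list was 1.32 to 2.72 over the STAM arrays and 0.61 to 1 over the Normal arrays. Without the 3 arrays of most detected spots the monocyte median fell to 0.5 in STAM-NON, then STAM-NON 2 alone, against Normal. Of 11 tested Kupffer cell and macrophage markers 5 were higher in STAM-NON, Trem2 by 2.93, Cd5l by 1.33 and C1qc by 1.1 among them, and 3 in STAM-INS. The summed macrophage signal was 174 to 318 for STAM-NON, 143 to 359 for STAM-INS and 81.6 to 123 for Normal, without overlap of STAM and Normal. Gpnmb, too dim on all Normal arrays to count as detected, was higher by at least 4.32-fold in STAM-NON, taken against the dimmest signal that counts as detected. Of 12 endothelial markers 2 passed as higher in STAM-NON, Lyve1 by 3.01 and Plvap by 0.92, and 0 passed in STAM-INS against Normal. The endothelial median was 0.36 in STAM-NON, with 9 of 12 higher than in Normal, and -0.03 in STAM-INS, with 5 higher. Without the 3 arrays of most detected spots it was -0.10 in STAM-NON, then STAM-NON 2 alone. Summed endothelial signals were 76.5 to 108, 52.0 to 93.5 and 83.5 to 90.7 for STAM-NON, STAM-INS and Normal. Of 10 tested T and NK cell markers Gzma alone passed against Normal, at 2.22 in STAM-NON and 2.09 in STAM-INS. The part of these cell types in the Ly6a, Ly6c1 and Ly6e values was not tested.

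Neutrophil markers, biliary markers and hepatocyte genes complete the comparison. Of 7 tested neutrophil markers 0 passed in STAM-NON against Normal, with a median of 2.87 that became 0.00397 without the 3 arrays of most detected spots, and summed signals were 146 to 338, 144 to 161 and 128 to 158 in STAM-NON, STAM-INS and Normal. Sums here too follow the brightest probes, for neutrophils that of Csf3r. The mean centred log2 signal of the neutrophil list was -1.88 to 2.49 over the STAM arrays and -2.49 to -2.20 over the Normal arrays. In STAM-INS against Normal the neutrophil median was 2.15, with 5 of the 7 markers higher and 0 of them past the threshold. Elane, a granule protease, fell by 0.58 and was the 1 that passed. Of 9 tested biliary and progenitor markers 4 were higher in STAM-NON than in Normal, Cd24a by 2.34, Krt7 by 1.55, Spp1 by 1.5 and Sox9 by 0.96, and Sox9 was the 1 that passed in STAM-INS, at 1.57. Krt7 was well above background on 1 of 3 Normal arrays. The summed biliary signal was 10.3 to 61.8 in STAM-NON, 7.48 to 10.2 in STAM-INS and 8.92 to 15.1 in Normal. The mean centred log2 signal of the biliary list was -1.48 to -0.12 over the STAM arrays and -2.06 to -1.53 over the Normal arrays. Hepatocyte genes summed to 6820 to 8840, 8330 to 9300 and 9250 to 9770, with Cps1, an enzyme of the urea cycle, lower by 0.67 in both STAM groups. None of the marker lists had a gene that passed in STAM-INS against STAM-NON. Without the 3 arrays of most detected spots, STAM-NON 2 was the only STAM-NON array. The calls of Sprr1a, Gzma and Cps1 in STAM-NON against Normal cannot be checked on it alone. The median against Normal was then 0.53 in STAM-NON and 1.29 in STAM-INS for macrophage markers, and 0.79 and 0.65 for biliary markers. It was 0.31 and 0.096 for stratified epithelium, 0.24 and 0.11 for T and NK cells, and -0.11 and -0.14 for hepatocytes. For STAM-INS it was 0.85 for monocyte, 2 for neutrophil and 0.19 for endothelial markers.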

How the data were processed

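The authors deposited the scanner output of Agilent Feature Extraction 11.5.1.1 for each of the 9 arrays, in which the processed signal of a spot is an intensity on a linear scale after background subtraction, not normalised between arrays per the file headers. For the arrays, neither a normalisation nor a test is given in the study's methods. Control spots and spots with outlier flags were dropped, log2 of the processed signal was taken minus the 75th percentile of all 59305 non-control spots of the array, and spots of 1 probe were averaged (55681 probes). Accessions without version were matched to a RefSeq table of GRCm38.p6, which named 27656 probes. The array was designed on mm9, so that table served for names and gene order, and the coordinates given belong to its own promoters.

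A probe was tested where a share of 0.5 or more of its spots lay well above background on all 3 arrays of at least 1 group (26277 probes). Groups and replicate numbers came from the sample labels, and a replicate is 1 mouse. limma 3.58.1 in R 4.3.3 (lmFit, eBayes, two-sided) was fitted to all 9 arrays with 6 residual degrees of freedom, and p-values were adjusted by Benjamini-Hochberg over all tested probes with a threshold of 0.05. Lists were read with 1 probe per gene, the brightest. The number of arrays limits the precision. The scripts were tested on simulated data.

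The family, the lists and the tests were chosen with earlier results of these data known. Named are all members, from each list up to 4 genes past the threshold with groups that did not overlap, by size, plus Gml2 and Iigp1, named after their values were seen, and the 5 genes most like Ly6d and 3 most like each other tested member. Alternatives covered the background correction (normexp on the spot median with an offset of 50, chosen after seeing that the files hold no spot mean), scaling, filter, prior, blocks, test and single arrays left out. Leaving out the 3 arrays with the most detected spots, and most alternatives for the lists beyond the members (all but quantile normalisation, spike-in centring and no filter for the other Ly6/uPAR genes), were also chosen after seeing the data.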

Additional observations from a re-analysis of the deposited data

Results flagged for a closer look

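The Ly6h probe A_55_P2049282 was outside all tests, since no group had it well above background on all 3 arrays, and yet it was well above background on 3 STAM arrays and on 0 Normal arrays. The 3 arrays were STAM-NON 1, STAM-NON 3 and STAM-INS 1, the same that had the most spots well above background. Their values were -3.64, -4.01 and -3.68, beside -4.12 for Normal 1. The part of the higher detection on those arrays in this result was not tested.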

How the results depend on the processing

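Ly6d in STAM-INS against Normal differed by 5.94 to 6.99 over the 22 settings, a description since these Normal arrays chose it, and every member probe kept its direction against Normal under all of them. The counts of member probes that passed against Normal, given next, include Ly6d and carry no test of it. Of the 5 member probes, 3 passed in STAM-NON against Normal, which became 5 with arrays centred on spike-in spots. It became 1 with no filter on dim probes, where 156 of 55655 probes passed as higher and 94 as lower. It was also 1 with a fit of only those groups. It was 0 with the slide row as a block, where 9 of 26277 probes passed as higher and 6 as lower. By the methods' t-test it was 2 unadjusted and 0 after Benjamini-Hochberg, where 8 of 26277 passed as higher and 22 as lower. Without single arrays it was 1 to 4, the 1 being without STAM-NON 1 or Normal 1, 2 or 3. Without the 3 arrays of most detected spots (a choice made after seeing the data) STAM-NON 2 was the only STAM-NON array, and no count is read. In STAM-INS against Normal, 3 passed, 1 with no filter, 1 by that t-test after adjustment, and 1 to 3 without single arrays, the 1 being without STAM-INS 2, Normal 1 or Normal 3. Ly6e fell short there in 5 of 22 settings and the brighter Ly6c1 probe in 14. With the replicate number as a block, 1 passed in each comparison with Normal. The numbers do not pair mice, as deviations of same-numbered arrays correlated between -0.29 and 0.15. In STAM-INS against STAM-NON 0 passed under every setting, and signs turned: Ly6d was -0.00193 with the slide row as a block and -0.196 to 0.827 without single arrays (below 0 without STAM-NON 3 or STAM-INS 2), Ly6a was -0.611 to 0.0222 without single arrays (above 0 without STAM-NON 1), the dimmer Ly6c1 probe was 0.0882 with the row block, and the brighter was 0.131 with it, 0.23 without the 3 arrays and -0.429 to 0.127 without single arrays (above 0 without STAM-NON 1 or STAM-INS 3). Of the other Ly6/uPAR genes, 5 passed in STAM-NON against Normal, and 3 with quantile normalisation, median centring, spike-in centring or the replicate block. The count was 2 with the percentile of detected probes, 0 with no filter or the row block, and 0 to 7 without single arrays. In STAM-INS against Normal 4 became 2 with the percentile of detected probes or the replicate block, 1 with spike-in centring, 0 with no filter and 0 to 5 without single arrays. Settings of this list beyond quantile normalisation, spike-in centring and no filter were added after seeing the data. The causes were not tested. The median of all probes in STAM-NON against Normal was -0.14, and 0.21 with spike-in centring, where 3543 probes were higher and 459 lower in place of 1655 and 2565. Normexp on the spot mean was not run.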
